A study of Mus musculus with 4 samples.

Results

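Expression of 8 genes for non-integrin receptors of niche homing and cell adhesion (*Cxcr4*, *Cd44*, *Selplg*, *Cd47*, *Pecam1*, *Spn*, *Ptprc* and *Cd34*) was examined in leukemic stem cells (LSCs) with and without CD37. The members were chosen by gene name, and all 8 were found among the 17104 genes of the deposited table. The samples were bone marrow YFP+, c-kit+ cells of mice with MLL-AF9 acute myeloid leukemia (AML), taken at week 6 of the secondary transplantation, with 2 CD37 fl/fl and 2 CD37 -/- libraries that the series describes as independent replicates. CD37 is a tetraspanin, a membrane protein that organizes other surface proteins. Per the study's methods, lineage-negative bone marrow cells of CD37 fl/fl mice with a Rosa26-CreERT2 transgene, which is active in every tissue once tamoxifen is given, were infected with an MLL-AF9 retrovirus that also encodes YFP. All libraries therefore carry MLL-AF9, the floxed alleles and Cre, and the CD37 -/- group received tamoxifen and the CD37 fl/fl group corn oil. Recipients were irradiated C57 mice, which kept host bone marrow and also received supporting bone marrow cells at the secondary transplantation, and the labels give male sex for all samples. The number of mice behind each library is not given in the sources used here, so p-values measure the spread between these libraries.

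The genes act at successive steps by which a blood cell finds and stays in the marrow. CXCR4 is the receptor of CXCL12, the chemokine that marrow stromal cells secrete to attract and hold stem cells. PSGL-1 (*Selplg*) and glycosylated forms of CD44 bind selectins on marrow endothelium, CD44 also binds hyaluronan in the matrix, and CD43 (*Spn*) and CD34 are long, sialic acid-rich mucins that can favor or hinder contact. PECAM-1 is an immunoglobulin-like receptor at contacts between leukocytes and endothelium, CD47 binds SIRP-alpha on macrophages and blocks phagocytosis, and CD45 (*Ptprc*) is the tyrosine phosphatase that sets the activity of SRC family kinases behind many of these receptors.

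RNA abundance was given as FPKM, fragments per kilobase of gene and unit of sequencing depth, where the kilobases were those of the whole genomic span with introns. Long introns thus lower the FPKM of a gene at a given number of reads, and levels of different genes are compared below only per length of transcript. Recovered reads totalled between 15139063 and 22562837 per library. Differences between the groups were tested with limma on log2(FPKM + 0.1) over the 11774 genes whose mean FPKM reached 0.1, with Benjamini-Hochberg adjustment, and 0 genes had an adjusted p under 0.05 (0% of those tested, smallest adjusted p 0.107). At an unadjusted p under 0.05, 1946 genes (16.5%) were higher and 660 (5.61%) lower in CD37 -/- LSCs. The values of the groups did not overlap for 4971 genes (42.2%) higher and 2190 (18.6%) lower in CD37 -/- LSCs. Over all tested genes the median log2 fold change was 0.23. An exact permutation test of 2 against 2 libraries cannot give a p under 0.333, so no single gene could pass it.

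To check the labels, the level of *Cd37* itself was examined. FPKM values were 56.6 and 46.8 in CD37 fl/fl LSCs against 23.2 and 22.9 in CD37 -/- LSCs, so the groups did not overlap, and the CD37 -/- mean was 44.6% of that in CD37 fl/fl. The loxP sites flank only part of the gene, and the table gives 1 value per gene, so the deleted exons were not measured apart from the rest. How much of this level came from the deleted alleles, from cells without deletion or from host cells was not tested. The defining genes of the gate and the leukemia were present in every library, with between 213 and 804 reads of *Kit* and between 4754 and 7600 reads of the MLL-AF9 target *Hoxa9*. They were not all alike in the groups. *Kit*, *Hoxa10* and *Meis1* were higher without overlap in CD37 -/- LSCs (log2 fold changes 0.50, 1.155 and 0.59) and *Mef2c* lower (-0.51), with adjusted p of 0.132 or above in limma. *Hoxa9* and *Myb* overlapped.

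To show the start sites of the genes whose groups did not overlap, the promoters of *Cxcr4*, *Ptprc*, *Spn* and *Cd47* are given from RefSeq (GRCm38.p6), 250 bases before to 50 bases after the start site, 5′ to 3′ on the strand of the gene. RefSeq promoters were matched for 6 of the 8 members, with 2 start sites each for *Ptprc* and *Cd47*, of which the first listed is printed. Capitals mark matches, on either strand, to these motifs: the TATA box is TATAAA and the GC box is GGGCGG, the ETS core is AGGAAG and the RUNX core is TGTGGT, and the CCAAT box was searched by its letters.
Cxcr4, chr1:128592250-128592549, minus strand: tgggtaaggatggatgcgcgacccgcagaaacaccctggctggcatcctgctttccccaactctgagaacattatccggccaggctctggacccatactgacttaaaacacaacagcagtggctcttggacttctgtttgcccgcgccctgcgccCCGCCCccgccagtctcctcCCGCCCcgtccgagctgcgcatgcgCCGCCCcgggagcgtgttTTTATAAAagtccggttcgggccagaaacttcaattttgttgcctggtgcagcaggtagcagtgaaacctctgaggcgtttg
Ptprc, chr1:138175256-138175555, minus strand: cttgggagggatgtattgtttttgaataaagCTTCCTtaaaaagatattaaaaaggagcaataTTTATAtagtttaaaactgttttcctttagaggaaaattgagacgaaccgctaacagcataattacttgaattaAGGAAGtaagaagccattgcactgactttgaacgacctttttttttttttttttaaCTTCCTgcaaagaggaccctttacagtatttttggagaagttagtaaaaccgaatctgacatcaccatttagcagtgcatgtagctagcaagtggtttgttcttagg
Spn, chr7:127137774-127138073, minus strand: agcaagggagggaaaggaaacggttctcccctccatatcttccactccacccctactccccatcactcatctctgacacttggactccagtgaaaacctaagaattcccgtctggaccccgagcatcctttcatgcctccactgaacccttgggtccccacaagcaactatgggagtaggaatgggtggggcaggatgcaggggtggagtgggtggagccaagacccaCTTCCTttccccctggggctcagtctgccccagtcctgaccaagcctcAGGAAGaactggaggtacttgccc
Cd47, chr16:49855404-49855703, plus strand: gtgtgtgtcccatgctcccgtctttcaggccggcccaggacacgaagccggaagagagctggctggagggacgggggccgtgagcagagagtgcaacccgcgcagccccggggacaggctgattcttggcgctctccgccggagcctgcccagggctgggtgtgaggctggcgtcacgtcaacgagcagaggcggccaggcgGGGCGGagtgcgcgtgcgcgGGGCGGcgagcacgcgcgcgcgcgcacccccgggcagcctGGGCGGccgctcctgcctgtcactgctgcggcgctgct

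The promoters differed in composition. The *Cxcr4* window held 3 GC boxes and 2 overlapping TATA matches on opposite strands, at -32 and -30 from the start site, and 59.3% of its bases were G or C. The *Cd47* window held 3 GC boxes and 35 CpG dinucleotides at 74% G or C. In the *Ptprc* window, with 33.7% G or C, there were 3 ETS cores and 1 TATA match at -187, and the *Spn* window held 2 ETS cores at -22 and 26. The window of the second *Ptprc* start site, not printed, held 1 ETS core and no TATA match. *Cd44* and *Cd34*, not printed, had 3 and 1 ETS cores, and *Cd44* also had 1 GC box. Of all 32851 RefSeq promoters of this length, 13.6% held TATAAA, 35.7% GGGCGG, 37.4% CCAAT, 35.4% AGGAAG and 16.8% TGTGGT, with a median of 52.7% G or C and 7 CpG. No member's window held CCAAT or TGTGGT. These matches are a description of the letters only.

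Next, the levels of the 8 genes were compared per length, as reads per kilobase of the principal transcript (the main protein-coding isoform of the annotation), scaled to 1000000 reads per library. *Cd47* stood highest in all 4 libraries, between 438 and 730, above *Spn* at 114 to 176. *Spn* was above *Selplg* (87.5 to 134.6) in 3 of 4 libraries, and the ranges of this pair overlapped, as did those of *Selplg* and *Cxcr4*. *Cxcr4* (31.4 to 103), *Cd44* (31.4 to 54.6), *Ptprc* (18.6 to 70.5) and *Pecam1* (23.9 to 46.8) overlapped one another, and each stood above the next in this order in only 2 of 4 libraries. *Cd34* was far below all others, at 0.135 to 0.378. With the length of all annotated exons in place of the principal transcript, parts of this order were lost. *Cd47* (mean 125.8) was then above *Spn* (110.9) in 3 of 4 libraries, with 91.9 against 96.9 in CD37 fl/fl replicate 1. The mean of *Cxcr4* (67.6) was above that of *Selplg* (48.9), though in only 2 of 4 libraries, and *Ptprc*, whose annotated exons are long, had a mean of 9.78 and lay below *Pecam1* (18.9) in all 4. Reads in introns may be among these values, since the counting unit is not given in the sources used here, and the span was 87 times as long as the principal transcript for *Cd47*, 24 times for *Ptprc*, 16.1 times for *Cd44* and 1.49 times for *Spn*.

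**Figure D1:**
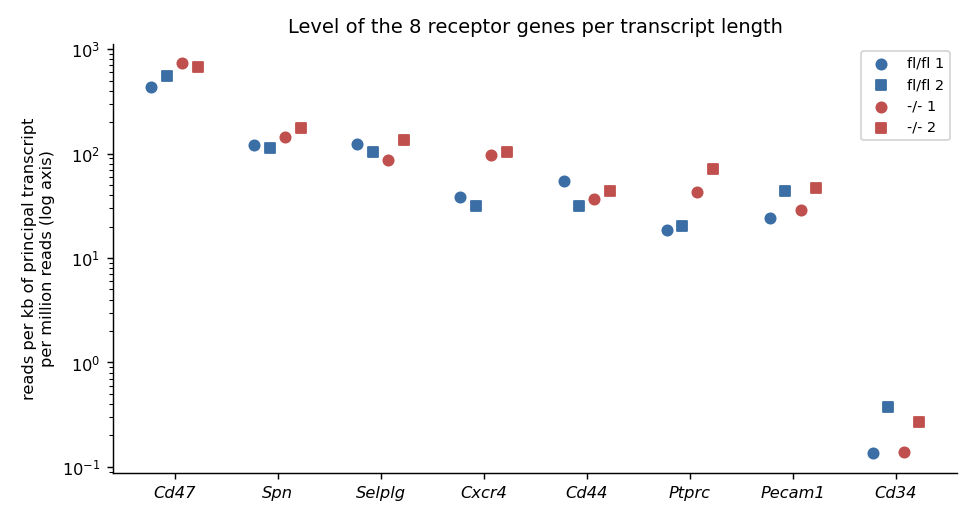
Level of each gene (horizontal axis, ordered by mean) as reads per kilobase of principal transcript, scaled to 1000000 reads per library (vertical axis, logarithmic), with CD37 fl/fl libraries in blue and CD37 -/- libraries in red, replicate 1 as circles and replicate 2 as squares. *Cd47* lies at 438 to 730 and *Cd34* at 0.135 to 0.378, and the red points of *Cxcr4* and *Ptprc* stand above the blue ones.

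*Cxcr4* (ENSMUSG00000045382, chromosome 1, 128588199 to 128592293, minus strand, 2 exons in transcript Cxcr4-201) had the largest log2 fold change among the members. Its FPKM was 16.8 and 13.8 in CD37 fl/fl LSCs against 42.8 and 45.4 in CD37 -/- LSCs, from 1056, 977, 3109 and 4203 reads in the same order. Both CD37 -/- libraries were higher, and the lower of them was 2.54 times the higher CD37 fl/fl library. Means were 15.3 ± 2.16 and 44.1 ± 1.81 (SD, n = 2 each), and libraries of one group differed by 1.22 and 1.06 times. The log2 fold change was 1.53 (standard error 0.23, 95% interval 0.95 to 2.10), with an unadjusted p of 0.000953 and an adjusted p of 0.109 in limma. Of all tested genes, 4.58% had a fold change at least as high. The difference remained in the same direction under all 17 alternative settings, between 1.26 and 1.91 on the log2 scale. Its adjusted p passed the threshold in 1 of them, limma-voom on recovered reads with a replicate block (adjusted p 0.040, over all alternatives 0.040 to 0.365).

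*Ptprc* (ENSMUSG00000026395, chromosome 1, 138062861 to 138175708, minus strand, 30 exons in transcript Ptprc-203), which encodes the phosphatase CD45, followed. FPKM values were 0.765 and 0.841 in CD37 fl/fl LSCs against 1.78 and 2.93 in CD37 -/- LSCs, from 1324, 1644, 3567 and 7478 reads. Both CD37 -/- libraries were higher, at least 2.12 times the higher CD37 fl/fl library, but they differed from each other by 1.64 times. Means were 0.803 ± 0.0532 and 2.36 ± 0.811 (SD, n = 2 each). The log2 fold change was 1.40 (standard error 0.31, 95% interval 0.61 to 2.20), with an unadjusted p of 0.00591 and an adjusted p of 0.140 in limma. It was 1.06 without CD37 -/- replicate 2, 1.75 without CD37 -/- replicate 1, and 0.88 with a pseudocount of 1, which is about as large as the values of this gene. Limma-voom on recovered reads uses no FPKM pseudocount, only an offset that is small beside the reads of this gene. There the adjusted p was 0.071, and with the replicate block it was 0.041.

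**Figure D2:**
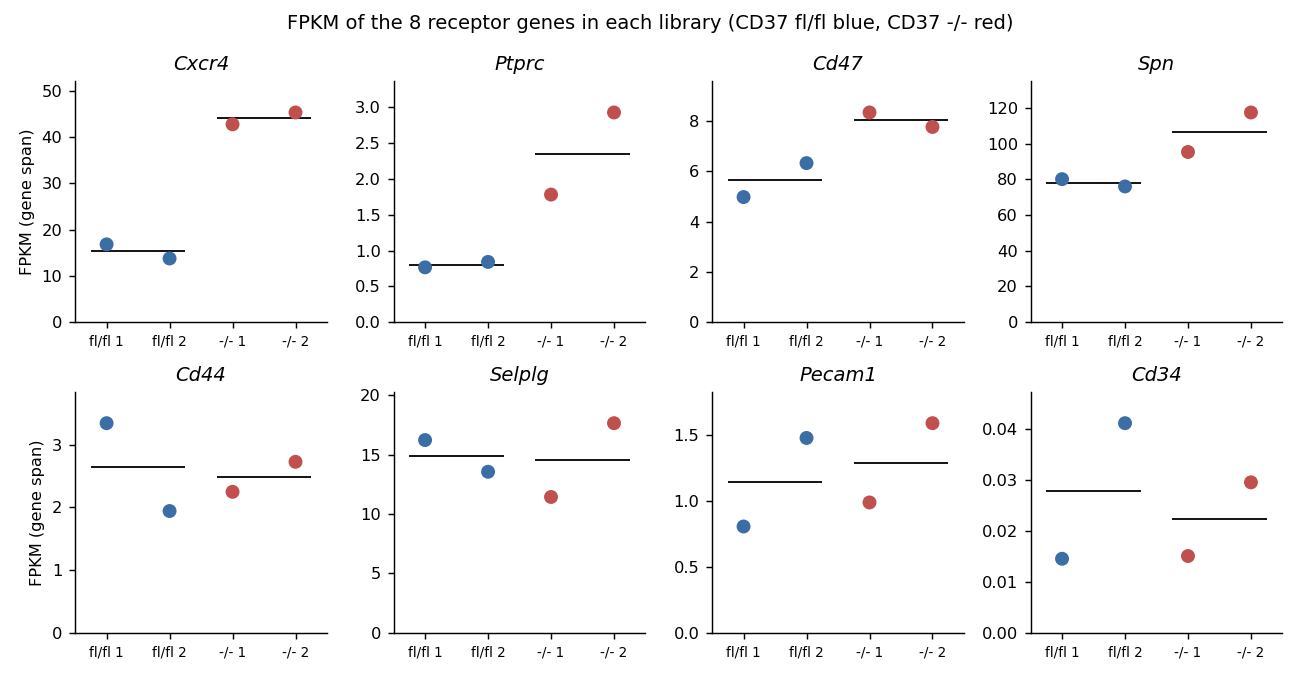
FPKM per gene span (vertical axes, each from 0) of the 8 genes in the 2 CD37 fl/fl libraries (blue) and the 2 CD37 -/- libraries (red), with a line at each group mean. For *Cxcr4*, *Ptprc*, *Cd47* and *Spn* both red points stand above both blue points, whereas the groups overlap for *Cd44*, *Selplg*, *Pecam1* and *Cd34*.

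The mucin-like genes were *Spn*, *Selplg* and *Cd34*. *Spn* (ENSMUSG00000051457, chromosome 7, 127132232 to 127137823, minus strand), which encodes CD43, had an FPKM of 80.1 and 76.0 in CD37 fl/fl LSCs against 95.4 and 117 in CD37 -/- LSCs. Both CD37 -/- libraries were higher, by 1.19 times between the nearest values, with a log2 fold change of 0.44 (standard error 0.24, 95% interval -0.18 to 1.06, adjusted p 0.325 in limma) that lay between 0.17 and 0.82 over the alternatives. *Selplg* (ENSMUSG00000048163, chromosome 5, 113818536 to 113832644, minus strand), which encodes PSGL-1, the main ligand of P-selectin, had values of 16.2 and 13.5 in CD37 fl/fl LSCs against 11.4 and 17.6 in CD37 -/- LSCs. The CD37 -/- libraries held both its lowest and its highest value, and the log2 fold change was -0.06 (95% interval -0.80 to 0.68, adjusted p 0.915 in limma). *Cd34* (ENSMUSG00000016494, chromosome 1, 194938819 to 194961279, plus strand), a marker of immature progenitors, was at 5 and 16 reads in CD37 fl/fl against 6 and 15 in CD37 -/-, and its FPKM of 0.0145, 0.0411, 0.0151 and 0.0295 was under the limit of 0.1 for testing. With so few reads a difference between the groups was not detectable. An antisense gene overlaps *Cd34*, and whether the counting used the strand is not given in the sources used here.

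*Cd44* (ENSMUSG00000005087, chromosome 2, 102811141 to 102901665, minus strand), the hyaluronan receptor, overlapped between the groups. FPKM was 3.34 and 1.94 in CD37 fl/fl LSCs against 2.25 and 2.72 in CD37 -/- LSCs, so that both CD37 -/- values lay between the CD37 fl/fl values. The log2 fold change was -0.04 with a 95% interval of -0.88 to 0.79, which leaves room for changes of either sign (adjusted p 0.951 in limma). These values sum all isoforms, whereas the gene is known for variable exons that the table does not resolve.

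The immunoglobulin-like members were *Cd47* and *Pecam1*. *Cd47* (ENSMUSG00000055447, chromosome 16, 49800533 to 49915010, plus strand) had an FPKM of 4.98 and 6.33 in CD37 fl/fl LSCs against 8.35 and 7.77 in CD37 -/- LSCs, from between 8735 and 20124 reads. Both CD37 -/- libraries were higher, by 1.23 times between the nearest values, with a log2 fold change of 0.51 (standard error 0.23, 95% interval -0.08 to 1.10, adjusted p 0.263 in limma) that lay between 0.25 and 0.89 over the alternatives. *Pecam1* (ENSMUSG00000020717, chromosome 11, 106654217 to 106750628, minus strand) had values of 0.805 and 1.48 in CD37 fl/fl LSCs against 0.987 and 1.59 in CD37 -/- LSCs. Replicate 2 was the higher library in each group, by 1.83 and 1.61 times, which exceeded the difference between the group means (log2 fold change 0.18, 95% interval -0.81 to 1.18, adjusted p 0.796 in limma).

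In all, 4 of the 7 tested members were higher in both CD37 -/- libraries, beside 42.2% of all tested genes, and 0 were lower in both, beside 18.6%. At an unadjusted p under 0.05, 2 members (*Cxcr4* and *Ptprc*) were higher, beside 16.5% of all tested genes, and 0 were lower, beside 5.61%. The median log2 fold change of the 7 members was 0.44 and that of all tested genes 0.23. That median depended on the scaling, with -0.03 after quantile normalization, -0.0035 after division by the upper quartile and 0.55 after TPM rescaling, and the share of higher genes among those at an unadjusted p under 0.05 was 74.7% in the deposited scaling, 47.5%, 43.9% and 93.3%. Relative to the median of all tested genes, the 3 scalings put *Cxcr4* at 1.26 to 1.64 and *Ptprc* at 1.12 to 1.20 above it, *Cd47* at 0.25 to 0.38 and *Spn* at 0.17 to 0.68 above it, and *Cd44*, *Selplg* and *Pecam1* below it by at most 0.32. The signs of *Cd44* and *Selplg* turned under TPM rescaling, and the sign of *Pecam1* under quantile and upper quartile scaling.

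**Figure D3:**
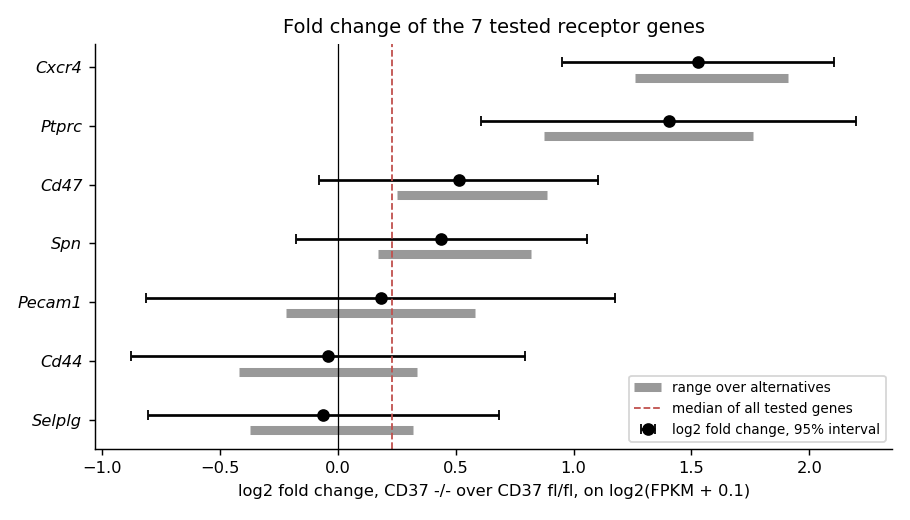
Log2 fold change of the 7 tested genes (horizontal axis, CD37 -/- over CD37 fl/fl, on log2(FPKM + 0.1)), with 95% intervals from limma (points and lines) and the range over the 17 alternative settings (grey bars). The intervals of *Cxcr4* (0.95 to 2.10) and *Ptprc* (0.61 to 2.20) lie to the right of the dashed median of all tested genes (0.23), and those of the other 5 genes include it.

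Ratios between members within a library do not depend on the scaling between libraries. Per length of principal transcript, *Cxcr4* stood to *Cd44* as 0.709 and 0.998 in CD37 fl/fl LSCs against as 2.68 and 2.34 in CD37 -/- LSCs. *Cxcr4* to *Selplg* was 0.309 and 0.303 in CD37 fl/fl LSCs against 1.12 and 0.767 in CD37 -/- LSCs. The ratio of *Ptprc* to *Cd44* was 0.341 and 0.645 in CD37 fl/fl against 1.18 and 1.60 in CD37 -/-. In each of these pairs the groups did not overlap, and the ratio was higher in both CD37 -/- libraries. The pairs set the members with the largest fold changes against members with fold changes near 0. They therefore restate those differences without the scaling and are not separate support. *Ptprc* to *Spn* and *Spn* to *Selplg* were also higher without overlap, whereas *Cd47* to *Cd44* overlapped. *Cxcr4* to *Ptprc* was 2.08, 1.55, 2.27 and 1.46, and *Spn* to *Cd47* was 0.276, 0.206, 0.196 and 0.260 in the same order of libraries, so these pairs overlapped between the groups.

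For each tested member, the gene with the most similar pattern over the 4 libraries was found by the root mean square difference of centered log2 values. *Lbr*, which encodes the lamin B receptor, was nearest to *Ptprc* (difference 0.0197 on the log2 scale), with an FPKM of 2.31 and 2.49 in CD37 fl/fl against 5.27 and 8.39 in CD37 -/-. *Zfp819*, a zinc finger gene with between 21 and 146 reads, was nearest to *Cxcr4* (0.0145), *Zwint*, a kinetochore gene, to *Cd47* (0.0147), and *Klhl26* to *Spn* (0.00337). *Tmem51*, *Slc39a1* and *Gm1848* were nearest to *Cd44*, *Selplg* and *Pecam1* (0.0277, 0.0346 and 0.0345). With 4 libraries and 11774 genes, close matches are a description of these libraries.

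Then, 8 lists of genes that work with these receptors were examined, of which 144 of 166 genes were in the table and 116 were tested. At an unadjusted p under 0.05, 24 of the 116 were higher in CD37 -/- LSCs (all tested genes, 16.5%) and 3 lower (5.61%), and the median log2 fold change was 0.44. These counts depended on which library was left out and on the scaling, as did those of all tested genes. Fewer were higher without CD37 fl/fl replicate 2 or without either CD37 -/- library, in the lists and over all tested genes. Without CD37 -/- replicate 2, the share of higher genes in the lists fell below that of all tested genes. After quantile normalization 20 were higher and 8 lower (all 11774 tested genes, 1075 and 1190). Division by the upper quartile gave 17 and 6 (1122 and 1431), and TPM rescaling 46 and 1 (3395 and 244). None had an adjusted p under 0.05 in limma, and the genes named below are those with the largest differences among genes without overlap and with at least 100 reads on average. No test was made of any list.

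Of the chemokine and sphingosine-1-phosphate receptor list, 9 of 20 genes were tested. *Cxcl12*, the ligand of CXCR4, had 0, 0, 0 and 3 reads in the same order of libraries. *Cxcr2*, the chemokine receptor of neutrophils, had an FPKM of 5.81 and 1.13 in CD37 fl/fl LSCs against 6.73 and 17.8 in CD37 -/- LSCs (log2 fold change 2.04, unadjusted p 0.0601 in limma). *S1pr2* was at 1.14 and 0.596 against 1.37 and 1.82, and *Cx3cr1* at 0.160 and 0.132 against 0.0938 and 0.0943. The 1 member under the unadjusted threshold, *S1pr3*, was lower (all tested genes, 5.61% lower). It had 42 and 73 reads in CD37 fl/fl against 12 and 30 in CD37 -/-, and is named after its values were seen.

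Among 29 tested genes of signalling and migration downstream of CXCR4, 6 were higher and 0 lower at an unadjusted p under 0.05 (all tested genes, 16.5% and 5.61%). Without overlap, 17 were higher (all tested genes, 42.2%), and the median log2 fold change was 0.46. Under TPM rescaling 15 were higher at that threshold (all tested genes, 3395 of 11774), and after division by the upper quartile 4 (1122 of 11774). Without CD37 -/- replicate 2, the share of higher genes fell below that of all tested genes. The median was then 0.38 (all tested genes, 0.18). *Gnai3*, an inhibitory G protein subunit that couples to chemokine receptors, had an FPKM of 1.45 and 2.40 in CD37 fl/fl LSCs against 4.17 and 4.99 in CD37 -/- LSCs (log2 fold change 1.24, adjusted p 0.155 in limma). *Rgs2*, a regulator that shortens G protein signalling, was at 29.7 and 10.9 against 65.9 and 52.6 (1.71, adjusted p 0.173). *Cfl1*, which encodes the actin-severing protein cofilin, was at 46 and 75 reads in CD37 fl/fl against 595 and 182 in CD37 -/-, few for a gene with near-identical copies elsewhere, and its log2 fold change of 2.06 is therefore uncertain.

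The selectin list had 3 of 18 tested genes higher and 0 lower at an unadjusted p under 0.05 (all tested genes, 16.5% and 5.61%). The median log2 fold change was 0.45 (all tested genes, 0.23). Fewer were higher without CD37 -/- replicate 2, with a median of 0.27 (all tested genes, 0.18). *Fut4*, a fucosyltransferase that completes selectin ligands, was at 1.84 and 2.56 in CD37 fl/fl LSCs against 4.41 and 5.74 in CD37 -/- LSCs (log2 fold change 1.18, adjusted p 0.149 in limma). *C1galt1*, which builds the core of mucin-type glycans, was at 0.582 and 0.569 against 1.14 and 1.19 (0.91, adjusted p 0.161). On the other side, *B3gnt5* and *Gmds* had log2 fold changes of -0.73 and -0.29, neither of them under the unadjusted threshold.

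For CD44 partners, 5 of 15 tested genes were higher and 0 lower at an unadjusted p under 0.05 (all tested genes, 16.5% and 5.61%). The median log2 fold change was 0.55. Fewer were higher without CD37 -/- replicate 2, with a median of 0.32 (all tested genes, 0.18). After quantile normalization 3 were higher and 2 lower (all 11774 tested genes, 1075 and 1190). *Rdx* (radixin), which ties CD44, CD43 and PSGL-1 to actin, had an FPKM of 2.11 and 2.66 in CD37 fl/fl LSCs against 5.11 and 5.75 in CD37 -/- LSCs (log2 fold change 1.16, adjusted p 0.132 in limma). *Slc9a3r1*, an adaptor bound by radixin and its relatives, was at 4.94 and 3.73 against 8.16 and 8.81 (0.97, adjusted p 0.155). The relatives *Msn* (moesin) and *Ezr* (ezrin), named after their values were seen, had log2 fold changes of 0.97 and 0.81, and *Hmmr*, a hyaluronan-binding protein also used in mitosis, one of 0.91. *Mmp9*, a matrix protease, had one of 1.13 with an unadjusted p of 0.103, and *Stab1*, *Hyal2* and *Srgn* were between -0.67 and -0.23 with unadjusted p of 0.142 or above.

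The CD47 list had 2 of 8 tested genes higher and 0 lower at an unadjusted p under 0.05 (all tested genes, 16.5% and 5.61%). When all genes above 0 were fitted, 0 of 10 were higher (all fitted genes, 2200 of 16973). Fewer were higher with any 1 library left out, in the list and over all tested genes. The list median was then between 0.12 and 0.46 (all tested genes, 0.18 to 0.26). *Thbs1* (thrombospondin-1, a ligand of CD47) had an FPKM of 3.09 and 5.64 in CD37 fl/fl LSCs against 9.25 and 35.4 in CD37 -/- LSCs, far apart within CD37 -/-, with a log2 fold change of 2.09 that lay between 1.13 and 3.05 over the alternatives. *Ptpn11* (SHP2) was at 0.800 and 1.22 against 1.61 and 2.27, and *Qpctl*, which modifies CD47 so that it binds SIRP-alpha, at 1.06 and 1.41 against 1.58 and 2.00 (unadjusted p 0.123). Among 14 tested genes around CD45, 3 were higher and 1 lower at that threshold (all tested genes, 16.5% and 5.61%). Fewer passed it in either direction without CD37 -/- replicate 2, with a median log2 fold change of 0.36. *Cd33*, a sialic acid-binding receptor, was at 6.34 and 2.53 against 14.2 and 18.6 (log2 fold change 1.99, adjusted p 0.148), *Lgals9* at 4.80 and 4.34 against 7.96 and 10.98, and *Jak2* at 0.407 and 0.328 against 0.572 and 0.978. *Lgals1* (galectin-1, a ligand of CD45 and CD43) was the lower one, at 395 and 602 against 218 and 155 (log2 fold change -1.41, adjusted p 0.154).

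Among 6 tested sialomucins, *Cd164*, which acts with CXCR4 in progenitor adhesion, was higher, with an FPKM of 3.46 and 5.66 in CD37 fl/fl LSCs against 10.4 and 13.8 in CD37 -/- LSCs (log2 fold change 1.41, adjusted p 0.144 in limma). *Prom1* and *Cd24a* had log2 fold changes of 0.66 and 0.42 with unadjusted p of 0.125 and 0.124. Among 17 other adhesion receptors, 4 were higher and 1 lower at an unadjusted p under 0.05 (all tested genes, 16.5% and 5.61%). The median log2 fold change was 0.05. *Adgre5* (CD97) was at 0.682 and 0.648 against 2.89 and 6.90 (2.58, adjusted p 0.119), *Icam1* at 0.463 and 0.652 against 1.73 and 2.35 (1.70, adjusted p 0.120), and *Vcam1* at 0.575 and 0.146 against 2.88 and 1.30 (2.32, adjusted p 0.161). *Icam2* was lower, at 7.95 and 14.3 against 5.93 and 5.17 (-0.93, adjusted p 0.205). *Adgrg1* and *Bsg* were lower without overlap, at -1.05 and -0.42, with unadjusted p of 0.0681 and 0.126.

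**Figure D4:**
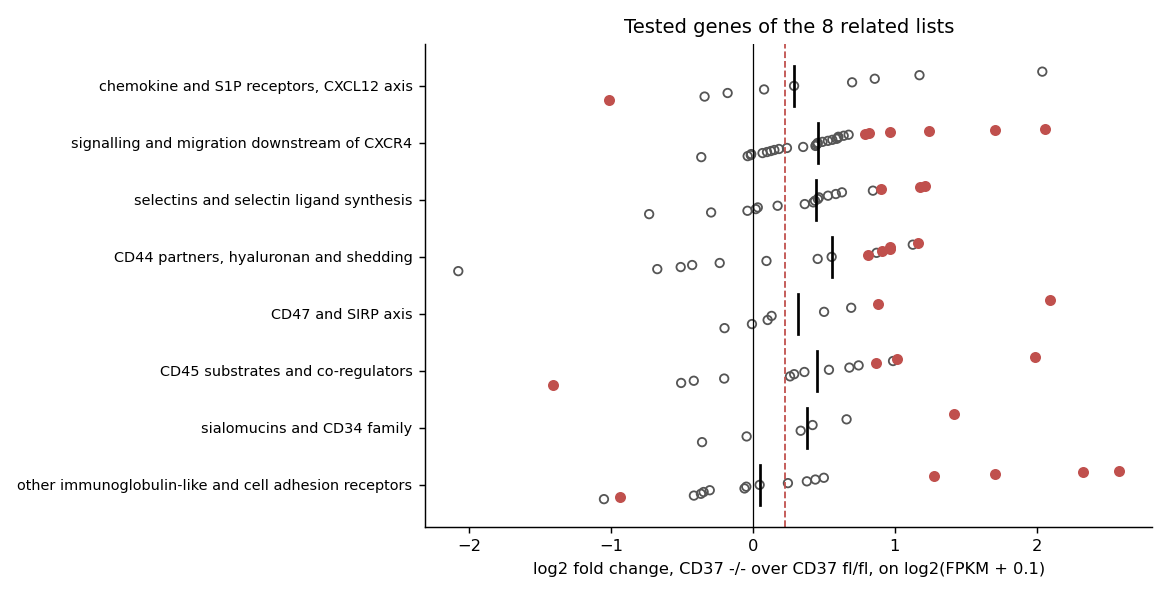
Log2 fold changes (horizontal axis, CD37 -/- over CD37 fl/fl, on log2(FPKM + 0.1)) of the 116 tested genes in the 8 lists (rows), with filled red points for an unadjusted p under 0.05 and open points otherwise, black bars at each list's median and a dashed line at the median of all tested genes (0.23). List medians lie between 0.05 and 0.55, and 24 red points lie to the right of 0 and 3 to the left.

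Markers of other bone marrow cells were measured in the same libraries, since receptor levels could move with them. In these bulk samples, fewer cells of a type and less RNA per cell cannot be told apart. All 10 neutrophil markers were present in every library. Their summed FPKM, mostly *S100a8* and *S100a9*, was 18661 and 3686 in CD37 fl/fl LSCs against 18657 and 10517 in CD37 -/- LSCs. Each of the 10 had a log2 fold change above 0, with a median of 1.3. Without overlap, 4 were higher in CD37 -/- LSCs and 0 lower (all tested genes, 42.2% and 18.6%), and 0 had an unadjusted p under 0.05 in limma. By the sums, replicate 2 of CD37 fl/fl stood apart. Without it, the log2 fold change of *Cxcr4* was 1.38, that of *Ptprc* 1.46, that of *Cd47* 0.68 and that of *Spn* 0.40. The members *Cxcr4*, *Spn* and *Cd44*, but not the others, had their lowest value in CD37 fl/fl replicate 2. *Cxcr2*, *Cd33*, *Rgs2* and *Mmp9* also had their lowest value in that library, and the part of the neutrophil markers in these values was not tested. The 8 erythroid markers in the table summed to 61.0 and 5.17 FPKM in CD37 fl/fl LSCs against 577 and 143.5 in CD37 -/- LSCs, higher in both CD37 -/- libraries like the 4 members, and their part was not tested.

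Macrophage and dendritic cell markers, 10 of 10 in the table, summed to 219 FPKM in CD37 fl/fl replicate 1 and to between 15.1 and 40.0 in the others, mostly through *Cd74*. Of 10 endothelial markers, which would mark the cells best known for *Pecam1* and *Cd34*, 7 were in the table, with a summed 853 to 1521 reads. Most of these were of *Erg* (413 to 969 reads), which blood progenitors also express, and of *Flt1*, with 168 and 191 reads in CD37 fl/fl against 580 and 464 in CD37 -/- (log2 fold change 0.64, adjusted p 0.287 in limma). *Vwf* had 27 to 91 reads, *Cdh5* 1 to 8 and *Kdr* 0 in 3 libraries and 13 in CD37 -/- replicate 2, and the part of endothelial cells in the values of *Pecam1* was not tested. Of 10 stromal markers 6 were in the table, with a summed 23 to 44 reads, and of 10 T and NK cell markers 4, with 9 to 36. The 8 B cell markers in the table summed to 13.6 and 15.6 FPKM in CD37 fl/fl against 9.09 and 7.19 in CD37 -/-, lower in both CD37 -/- libraries and mostly *Cd79b* (log2 fold change -0.97, adjusted p 0.159 in limma), and their part in the member values was not tested. The 6 megakaryocyte markers summed to between 4.50 and 15.7.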

How the data were processed

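The authors deposited FPKM values of poly(A) RNA from 4 strand-marked libraries, 1 column each. Per the labels, the tools were fastp 0.20.1, STAR 2.7.7a, featureCounts 2.0.0 and edgeR, and the build mm39. With the gene spans of GENCODE M21 (GRCm38), however, 98.9% of the values under 2000 reads were whole reads within 0.05, and with exon length 9.78% to 10.4%. Gene names and coordinates are from M21, which held 17045 of 17104 identifiers. Values were tested as log2(FPKM + 0.1) in limma 3.58.1 (R 4.3.3), two-sided, with lmFit, eBayes with a trend and Benjamini-Hochberg adjustment (threshold 0.05), without a block. A pseudocount and a limit of 0.1 were used because *Ptprc* and *Pecam1*, with long introns, had values under 1 in some libraries. All tested members also reached a mean FPKM of 1. Data of 2 against 2 libraries and 11774 genes were simulated with normal noise, independent between genes. Its variances were those that limma had already drawn toward each other across genes. Log2 changes of 1, 2 and 3, given to 67, 67 and 66 genes, passed the adjusted threshold for 0%, 80.6% and 97.0% of them. These shares may overstate what the real libraries could detect. There, *Slfn4* with a log2 fold change of 3.32 and *Adgre5* with 2.58 each had an adjusted p of 0.119 in limma. Alternatives are given at the end.

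The members, the lists and the settings were chosen with earlier results of these data known. Named are the 8 members, *Cd37*, the nearest gene of each tested member, and per list up to 3 genes in each direction with the largest log2 fold change among genes without overlap and with a mean of at least 100 reads, and other genes only where the text says so. Values of 1 further gene chosen in this way are not given. Replicates differed by more than sampling noise (chi-square per degree of freedom 102 and 66.5). The depth per library gives counting errors that are small beside this spread for all members other than *Cd34*. Python 3.11.15, pandas 2.3.3 and matplotlib 3.10.9 were used for tables and plots.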

Additional observations from a re-analysis of the deposited data

How the results depend on the processing

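No gene had an adjusted p under 0.05 in limma under 16 of 17 alternatives, and 397 had one in limma-voom on recovered reads with the replicate block. With the replicate block on log2(FPKM + 0.1) there were 0 at an adjusted and 2475 at an unadjusted p. No source says that equal replicate numbers pair libraries, and deviations of same-numbered libraries had a correlation of -0.0586 across genes. Genes at an unadjusted p under 0.05 numbered 2606 in the reported fit and 1167 to 3639 over the alternatives, with 3639 under TPM rescaling, 3303 and 3357 in limma-voom without and with the block, 3225 with exon length, 1626 with a pseudocount and limit of 1, 1621 with a limit of 1, and 1167 to 2154 with 1 library left out, lowest without CD37 -/- replicate 2.

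The directions of *Cxcr4*, *Ptprc*, *Cd47* and *Spn* were kept under all 17 alternatives. *Cd44* reversed to 0.33 under TPM rescaling and ranged from -0.42 to 0.34 with 1 library left out, above 0 without replicate 1 of either group. *Selplg* reversed to 0.32 under TPM rescaling and ranged from -0.37 to 0.25 with 1 library left out, above 0 without replicate 1 of either group. *Pecam1* reversed to -0.17 under quantile normalization and to -0.064 under the upper quartile, and ranged from -0.22 to 0.58 with 1 library left out, below 0 without CD37 fl/fl replicate 1 or CD37 -/- replicate 2. The cause was not tested. *Cd34* was fitted only with all genes above 0 and in limma-voom on recovered reads, with or without the block, and at 5 to 16 reads depth limits it. With 1 library left out, the remaining one of that group is assumed to vary like the other group.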
